A study of Mus musculus with 22 samples.

Results

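The mitochondrial genome of the mouse carries 13 protein-coding genes, and the RNAs of 10 of them are described here in the kidney: mt-Nd1, mt-Nd2, mt-Nd4, mt-Nd5 and mt-Nd6 (complex I), mt-Cytb (complex III), mt-Co1, mt-Co2 and mt-Co3 (complex IV) and mt-Atp6 (complex V). They were chosen by name, as the rows of the gene count table that carry these symbols, and make up 10 of its 32858 genes. The study asked whether istradefylline (KW6002), an antagonist of an adenosine receptor, alters the injury that the platinum drug cisplatin causes in the kidney. Polyadenylated RNA of whole kidney was sequenced from 22 male C57Bl6/J mice aged 8 to 10 weeks that carried no genetic alteration, 1 library per mouse. The vehicle group (n = 5) had neither drug, and the carrier of KW6002 was a mixture of DMSO, cremophor and saline. The KW6002 group (n = 6) had 3 mg/kg of the drug once a day into the peritoneum between day -5 and day 7. The cisplatin group (n = 5) had 6 daily intraperitoneal doses of 3 mg/kg, and its kidneys were collected 72 hours later. The cisplatin plus KW6002 group (n = 6) had both schedules. The labels give no separate time of collection for the groups without cisplatin.

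Mitochondrial DNA is transcribed from both strands by its own polymerase into long RNAs, in which transfer RNAs lie between most of the genes and are removed to free the individual mRNAs. The mRNAs are translated on mitochondrial ribosomes into core subunits of the respiratory chain, while the remaining subunits and the whole machinery for replication, transcription and translation come from nuclear genes. The tubules of the kidney, and the proximal tubule above all, reabsorb filtered solutes at a high energy cost and are dense in mitochondria.

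The libraries held between 26471762 and 40510754 counts on genes. The group medians were 31739661 (vehicle), 30199812.5 (KW6002), 34311202 (cisplatin) and 31604187 (cisplatin plus KW6002). The treatment labels were checked on Havcr1 and Lcn2, genes that injured tubules switch on. Havcr1 averaged 2.10 ± 0.549 CPM (SD, n = 5) in vehicle kidneys, 2.52 ± 1.20 (n = 6) with KW6002, 583 ± 95.4 (n = 5) with cisplatin and 185 ± 89.9 (n = 6) with both drugs. Lcn2 averaged 3.90 ± 0.638, 5.54 ± 2.43, 1239.5 ± 398 and 289.8 ± 38.4 CPM in the same order of groups. No library ran against its label in either gene. CPM here are counts relative to the library size scaled by the trimmed mean of M values (TMM), whereas a share is a percentage of all counts on genes, without scaling.

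The sample numbers in the labels fall into a series in the 300s and a series in the 500s, whose meaning is not stated. The vehicle group held 3 libraries of the 300s and 2 of the 500s, the KW6002 group 3 of each, and both cisplatin groups came from the 500s. Values within the 500s are given for the members. Of the other named genes and lists, only the sums of macrophage markers are given by series, without a test.

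The members lie on chromosome M of mm10 (GRCm38, annotation GENCODE M21). On the + strand are mt-Nd1 (ENSMUSG00000064341, chrM:2751-3707), mt-Nd2 (ENSMUSG00000064345, chrM:3914-4951), mt-Co1 (ENSMUSG00000064351, chrM:5328-6872), mt-Co2 (ENSMUSG00000064354, chrM:7013-7696), mt-Atp6 (ENSMUSG00000064357, chrM:7927-8607), mt-Co3 (ENSMUSG00000064358, chrM:8607-9390), mt-Nd4 (ENSMUSG00000064363, chrM:10167-11544), mt-Nd5 (ENSMUSG00000064367, chrM:11742-13565) and mt-Cytb (ENSMUSG00000064370, chrM:14145-15288). Only mt-Nd6 (ENSMUSG00000064368, chrM:13552-14070) lies on the - strand. Its last bases overlap those of mt-Nd5. The labels describe strand-specific libraries but not whether the counting used the strand, so reads of mt-Nd6 cannot be told apart from reads of the opposite strand at its place.

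The nuclear genome holds copies of mitochondrial DNA, and the authors kept reads of 50 bases with a single place of alignment. Every 50-base window of each member was looked up in the annotated nuclear transcripts. No window of mt-Nd1, mt-Nd6 or mt-Cytb had an identical nuclear copy, against 7.61% of the windows of mt-Nd5 and 8.19% of those of mt-Nd2. The share was 51.1% in mt-Co1 and 62.2% in mt-Nd4. It reached 99.5% in mt-Atp6, 99.9% in mt-Co3 and 100% in mt-Co2. Copies elsewhere than in annotated transcripts were not analysed here.

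The counts fell in the same 2 classes. The sum over the 22 kidneys was 20 counts for mt-Co2 with 0 to 7 per library, 28 for mt-Atp6 with 0 to 13, and 64 for mt-Co3 with 0 to 14. Counts of mt-Atp6 and mt-Co3 were 0 in all 5 vehicle libraries, which allows up to 3 counts in each, as far as counting error goes. The lowest count of any other member in any library was 2281, for mt-Nd6. The other mRNAs with copies over nearly their whole length, mt-Nd3 (98.0% of windows) and mt-Nd4l (98.8%), had at most 1 and 3 counts per library. The remaining mRNA, mt-Atp8, of whose windows 0% had a copy in an annotated nuclear transcript, has no row in the table and was not analysed here. Its gene lies between mt-Co2 and mt-Atp6 and overlaps mt-Atp6. The copies of these neighbours, Gm28661 and Gm10925, also lie side by side on chromosome 1. The bases between these copies were not searched, so the 0% does not show that mt-Atp8 lacks a nuclear copy. Levels of mt-Co2, mt-Co3 and mt-Atp6 could therefore not be read from these counts, and the part of the copies in their low counts was not tested.

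**Figure D1:**
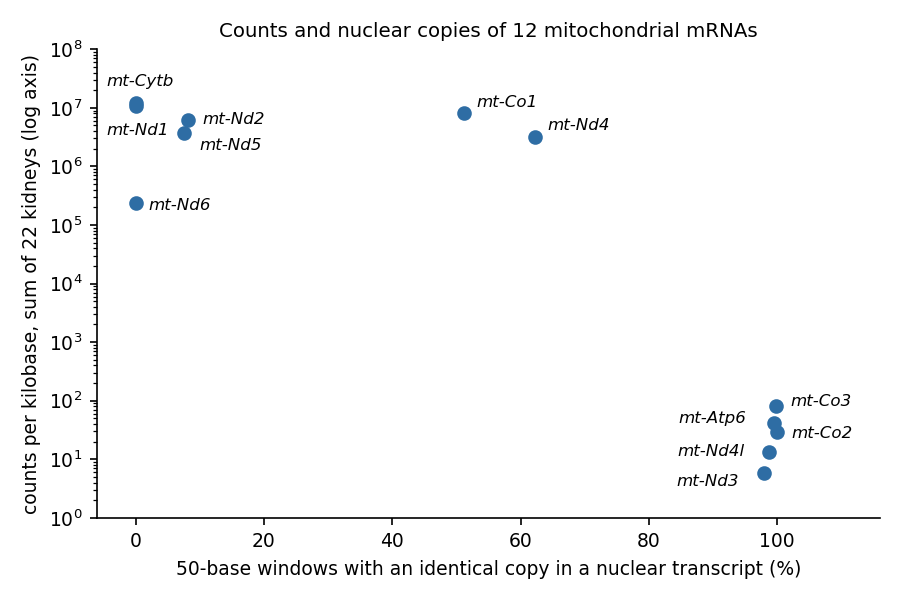
Counts per kilobase summed over 22 kidneys (log axis) against the percentage of 50-base windows with an identical copy in an annotated nuclear transcript, 1 point for each of 12 mitochondrial mRNAs. The 5 mRNAs with at least 98.0% of their windows copied have between 2 and 64 counts in all, and the other 7 have at least 120950.

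Of the annotated copies, 7 lie in a single stretch of 4663 bases on chromosome 1, chr1:24611535-24616197 on the - strand. There, Gm10925 matched bases 1 to 678 of mt-Atp6, Gm28661 bases 1 to 681 of mt-Co2 and Gm28437 bases 1 to 783 of mt-Co3, each with 0 differences. Gm28439 matched bases 1 to 876 of mt-Nd4 with 0 differences. Where along mt-Nd4 its reads lie was not analysed here. Gm13340 on chromosome 2 covered all 1545 bases of mt-Co1 with 37 differences (97.6% identity). The first 60 bases of mt-Atp6 (chrM:7927-7986, + strand) and of its copy (chr1:24614592-24614651, - strand) are shown because they are identical, so a read from either has more than 1 place. A stretch of mt-Co1 (chrM:5343-5402, + strand) and of its copy (chr2:22589573-22589632, - strand) shows how single differences, C54A and A60G, set reads that cross them apart from this copy. Whether such reads have other places in the genome was not analysed here. Capitals mark the substituted bases, with positions counted from 1 at the 5′ end of mt-Co1 and its own base first.
mt-Atp6: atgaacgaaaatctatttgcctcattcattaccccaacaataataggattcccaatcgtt
Gm10925: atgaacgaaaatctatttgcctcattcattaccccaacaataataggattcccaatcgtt
mt-Co1: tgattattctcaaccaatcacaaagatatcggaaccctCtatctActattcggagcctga
Gm13340: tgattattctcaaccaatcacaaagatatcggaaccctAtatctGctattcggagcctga

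The copies themselves had few counts, at most 0.00163% of a library for all of them together. Gm13341, a copy of mt-Co2 on chromosome 2, had 156 to 221 counts in vehicle libraries and 81 to 107 in cisplatin libraries. Its log2 fold change was -1.40 (adjusted p 5.28e-08, edgeR) for cisplatin against vehicle and 1.07 (adjusted p 4.22e-06) for cisplatin plus KW6002 against cisplatin. Gm13340 had 96 to 136 counts in vehicle and 78 to 168 in cisplatin libraries, with a log2 fold change of -0.43 (adjusted p 0.0397) and overlapping CPM. Copies of mt-Nd5 were also called lower with cisplatin, Gm4076 at -2.03 (adjusted p 3.39e-05) and Gm11407 at -1.75 (adjusted p 5.21e-05). The other copies tested, Gm10925 at -0.39 (adjusted p 0.637) and Gm28661 at -0.87 (adjusted p 0.0658), were not called there, and both were called higher for cisplatin plus KW6002 against cisplatin, at 2.16 (adjusted p 0.00453) and 1.55 (adjusted p 0.00110). Whether these counts are nuclear RNA or mitochondrial reads placed on the copy was not tested.

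As a pool, the members took 9.31% ± 0.154 of all counts (SD, n = 5) in vehicle kidneys, with 9.26, 9.46, 9.28, 9.10 and 9.47% in replicates 1 to 5. In the KW6002 group the share was 8.92% ± 0.107 (n = 6), with a lowest value of 8.76, a median of 8.93 and a highest of 9.03%. In the cisplatin group it was 4.83% ± 0.447 (n = 5), with 4.08, 5.14, 5.01, 5.14 and 4.77% in replicates 1 to 5. With both drugs it was 7.79% ± 0.458 (n = 6), ranging from 7.10 to 8.43% around a median of 7.69%. The 4 groups did not overlap: each cisplatin kidney lay below each kidney with both drugs, these lay below each KW6002 kidney, and the highest KW6002 kidney lay just under the lowest vehicle kidney. Cisplatin replicate 1 had the lowest share of all 22. Within the 500s the mean share was 9.28% in vehicle and 8.94% in KW6002 kidneys, and there the lowest vehicle value (9.10%) again lay above the highest KW6002 value (9.03%). The other 19 rows of chromosome M added at most 0.00277% of counts in any library. The share has no test, since it is a score over members chosen with results known.

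**Figure D2:**
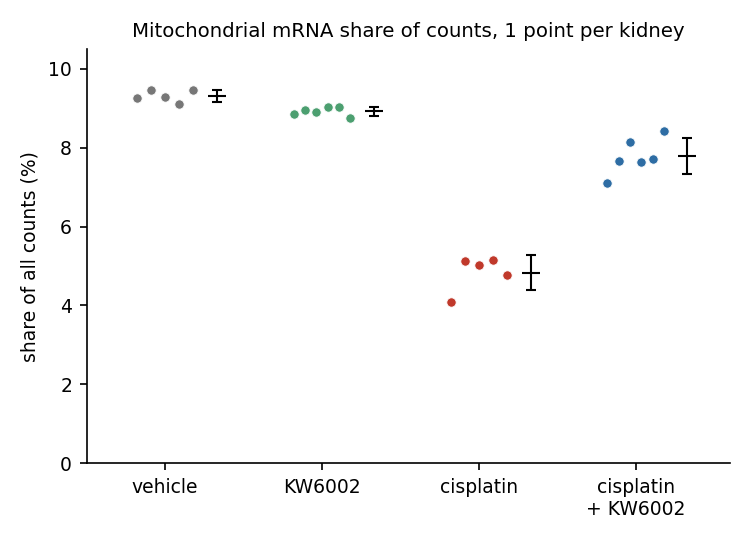
Share of all counts on genes taken by the 10 members (percent) in each of the 22 kidneys, by group, with the mean and SD of each group. The 5 cisplatin kidneys sit between 4.08 and 5.14%, the 6 kidneys with both drugs between 7.10 and 8.43%, and the 11 others between 8.76 and 9.47%.

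Of the members, 7 of 10 passed the filter on low counts. The others, mt-Co2, mt-Co3 and mt-Atp6, did not. Changes in single genes were tested in 1 edgeR fit over 17131 genes, and a gene is called here at an adjusted p below 0.05.

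Complex I passes electrons from NADH to ubiquinone, and mt-Nd1 encodes a membrane subunit that helps to form its quinone site. For mt-Nd1, vehicle replicates 1 to 5 had 14579.6, 15319, 15637, 16359 and 16111 CPM. The KW6002 group ranged from 14404 to 15024 CPM with a median of 14934. These 2 groups overlapped. Cisplatin replicates 1 to 5 had 8013, 11023, 10061, 10244 and 10788 CPM. Kidneys with both drugs had 15019.8 to 20847 CPM and a median of 18375. Each cisplatin kidney was below all kidneys of the other groups, and those with both drugs reached from within the vehicle range to above it. The log2 fold change was -0.64 ± 0.0886 (SE; adjusted p 1.07e-06, edgeR) for cisplatin against vehicle, lower in 5 of 5 kidneys than in any vehicle kidney. For cisplatin plus KW6002 against cisplatin it was 0.87 ± 0.0859 (adjusted p 1.79e-08). Against vehicle, the kidneys with both drugs were higher by 0.23 ± 0.0847 (adjusted p 0.0219), with overlapping groups. That last call did not hold in every setting: the log2 difference was 0.21 (adjusted p 0.0532) without vehicle replicate 1, 0.19 (adjusted p 0.0537) without cisplatin plus KW6002 replicate 6 and 0.17 (adjusted p 0.281) within the 500s. With the number series as a covariate it was 0.22 (adjusted p 0.0692), and its adjusted p ranged from 8.43e-05 to 0.281 over the alternatives.

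The genes mt-Nd2, mt-Nd4 and mt-Nd5 encode the large subunits of the membrane arm of complex I that are related to antiporters and pump protons. For mt-Nd2, vehicle replicates 1 to 5 had 11838, 11789, 12305, 11724 and 13439 CPM, and cisplatin replicates 1 to 5 had 3057, 3865, 4007, 4184 and 4492 CPM. KW6002 kidneys had 10807 to 12036 CPM (median 11532), and those with both drugs 8599.7 to 11097 CPM (median 9019). Cisplatin kidneys were the lowest without overlap, and kidneys with both drugs lay between them and the vehicle kidneys, overlapping neither. The log2 fold change of mt-Nd2 was -1.64 ± 0.0917 (SE; adjusted p 3.39e-13, edgeR) with cisplatin and 1.26 ± 0.0880 (adjusted p 1.13e-10) for both drugs against cisplatin, higher in 6 of 6 kidneys than in any cisplatin kidney. That increase was the largest among the 7 tested members. Both drugs against vehicle gave -0.38 ± 0.0854 (adjusted p 0.000533).

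Vehicle replicates 1 to 5 had 9226, 9796, 9681, 8690.3 and 8721 CPM of mt-Nd4, and cisplatin replicates 1 to 5 had 2172, 2923, 2756, 2924 and 2398 CPM. The KW6002 group had 8545 to 9561 CPM (median 8817) and the group with both drugs 4777 to 5206 CPM (median 4942). The kidneys with both drugs again lay between the cisplatin and the vehicle kidneys without overlap. With cisplatin the log2 fold change of mt-Nd4 was -1.81 ± 0.0790 (SE; adjusted p 6.07e-15, edgeR). Both drugs against cisplatin gave 0.92 ± 0.0747 (adjusted p 1.06e-09), and both drugs against vehicle -0.89 ± 0.0732 (adjusted p 7.99e-10).

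Counts of mt-Nd5 came to 12921, 14278, 12662, 11509 and 12499 CPM in vehicle replicates 1 to 5 and to 4434, 5817, 5650.3, 5867 and 5784 CPM in cisplatin replicates 1 to 5. KW6002 kidneys had 11199 to 13029 CPM (median 12079), and kidneys with both drugs 8111 to 9626 CPM (median 8575). Cisplatin replicate 1 stood well below the other cisplatin kidneys, and the order of the groups was that of mt-Nd4 without overlap among vehicle, cisplatin and both drugs. The log2 fold change of mt-Nd5 was -1.21 ± 0.0851 (SE; adjusted p 1.60e-11, edgeR) with cisplatin, 0.67 ± 0.0812 (adjusted p 4.05e-07) for both drugs against cisplatin and -0.55 ± 0.0801 (adjusted p 4.05e-06) for both drugs against vehicle.

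The member on the opposite strand, mt-Nd6, encodes a further membrane subunit of complex I and had far fewer counts. Its vehicle replicates 1 to 5 had 158, 91.4, 141, 231 and 283 CPM, its cisplatin replicates 84.0, 114, 119, 125 and 146 CPM. KW6002 kidneys had 129 to 172 CPM (median 148) and kidneys with both drugs 166 to 299.8 CPM (median 223). Vehicle replicates 4 and 5, the vehicle kidneys of the 500s, were the highest vehicle kidneys, and vehicle and cisplatin groups overlapped. The vehicle kidneys spread with a coefficient of variation of 42.0%, against 2.61% to 7.80% in the other 6 tested members. The log2 fold change of mt-Nd6 was -0.62 ± 0.218 (SE; adjusted p 0.0144, edgeR) for cisplatin against vehicle. It was -0.41 (adjusted p 0.0811) without vehicle replicate 5 and -1.14 (adjusted p 8.56e-05) within the 500s, and its adjusted p ranged from 8.56e-05 to 0.0875 over the alternatives. Both drugs against cisplatin gave 0.96 ± 0.212 (adjusted p 0.000531), and these groups did not overlap. Both drugs against vehicle gave 0.34 ± 0.209 (adjusted p 0.167). The sign of that difference depended on the kidneys used and its call also on the scaling, with 0.50 (adjusted p 0.0363) for libraries scaled by their size alone, 0.56 (adjusted p 0.0203) without vehicle replicate 5 and -0.17 (adjusted p 0.515) within the 500s, and its adjusted p ranged from 0.0203 to 0.673.

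Complex III hands electrons to cytochrome c, and mt-Cytb encodes the subunit that holds both of its b-type hemes. In mt-Cytb, vehicle replicates 1 to 5 had 29001, 29189.7, 28774, 30712 and 29681 CPM, and cisplatin replicates 1 to 5 had 6612, 9369.8, 8873, 9234 and 8853 CPM. The KW6002 group had 25528 to 27967 CPM (median 27436), and the group with both drugs 14512 to 18667 CPM (median 15283). None of the 4 groups overlapped another, and the highest KW6002 kidney was below the lowest vehicle kidney. The log2 fold change was -1.78 ± 0.0923 (SE; adjusted p 9.46e-14, edgeR) with cisplatin, 0.89 ± 0.0873 (adjusted p 1.65e-08) for both drugs against cisplatin and -0.89 ± 0.0857 (adjusted p 9.66e-09) for both drugs against vehicle. KW6002 against vehicle gave -0.12 ± 0.0857 (adjusted p 0.635), so the separation of these groups did not pass the test.

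Complex IV reduces oxygen, and mt-Co1 encodes its catalytic subunit, while mt-Co2 encodes the subunit that receives electrons from cytochrome c and mt-Co3 a further core subunit. In complex V, mt-Atp6 encodes a part of the proton channel. Of these 4, values follow for mt-Co1. It had 20099.6, 19947, 19736, 19116 and 21377 CPM in vehicle replicates 1 to 5 and 12076, 15330.4, 14361, 14663 and 11831 CPM in cisplatin replicates 1 to 5. KW6002 kidneys had 19158 to 20344 CPM (median 19800.1), and kidneys with both drugs 15163 to 18260.2 CPM (median 17229.6). Cisplatin kidneys lay below all vehicle kidneys, and cisplatin replicate 2 overlapped the kidneys with both drugs. The log2 fold change of mt-Co1 was -0.55 ± 0.0800 (SE; adjusted p 1.84e-06, edgeR) with cisplatin and 0.33 ± 0.0767 (adjusted p 0.000997) for both drugs against cisplatin. Both drugs against vehicle gave -0.23 ± 0.0763 (adjusted p 0.0132). In that last comparison the difference was -0.24 (adjusted p 0.0926) within the 500s and -0.07 (adjusted p 0.366) when libraries were scaled by their size alone, and its adjusted p ranged from 0.00126 to 0.366.

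**Figure D3:**
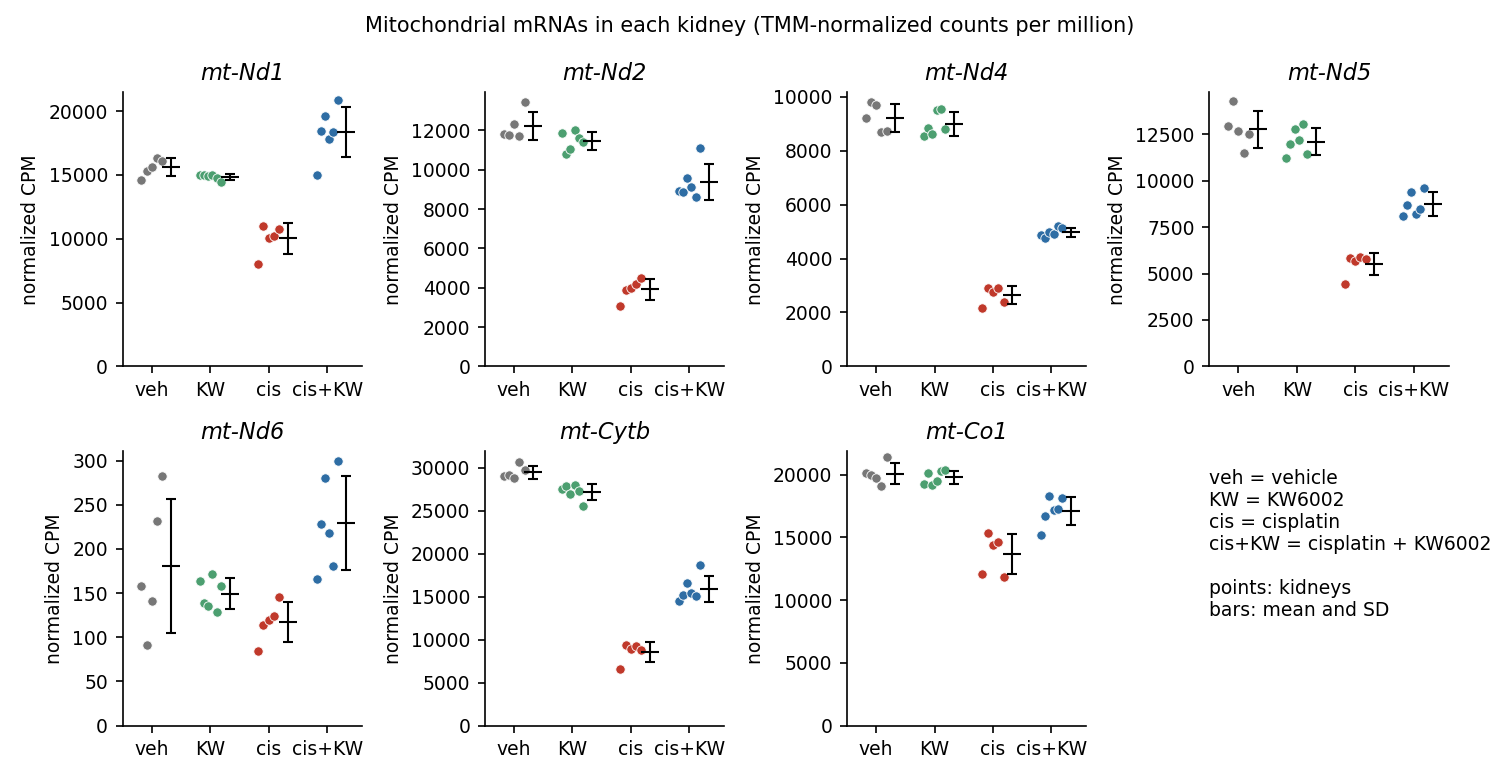
CPM of the 7 tested members in each of the 22 kidneys, by group, with the mean and SD of each group. In mt-Nd2, mt-Nd4, mt-Nd5 and mt-Cytb the kidneys with both drugs lie between the cisplatin and the vehicle kidneys; in mt-Nd1 they reach 20847 CPM, above the vehicle kidneys, whose highest value is 16359 CPM.

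Over the comparisons, the members read as follows. For cisplatin against vehicle, 7 of the 7 tested members were called lower, while 35.9% of all genes tested were called lower, 34.6% higher and 70.5% in either direction. Their median log2 fold change was -1.21, beside -0.01 over all genes. A stricter threshold asked for a log2 fold change above 1 or below -1 and an adjusted p under 0.01. It was passed by 4 members (mt-Nd2, mt-Nd4, mt-Nd5 and mt-Cytb) and by 24.1% of genes. The CPM of 6 members did not overlap between these groups, which held for 55.3% of genes (27.9% lower and 27.4% higher), and the exception was mt-Nd6. Within the 500s, with 2 vehicle kidneys, the same 7 were called lower, with log2 fold changes between -0.57 (mt-Co1) and -1.82 (mt-Cytb). When libraries were scaled by their size alone, the median of all genes moved to 0.20 and the calls from 49.1% to 65.8% higher. In that setting 6 members were called lower, among them mt-Nd1 at -0.42 and mt-Co1 at -0.34, with mt-Nd6 at -0.41 (adjusted p 0.0875, edgeR). Without vehicle replicate 5 the number was also 6.

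For cisplatin plus KW6002 against cisplatin, 7 of 7 members were called higher, with 28.6% of all genes called higher, 27.2% lower and 55.8% in either direction. The median of the members was 0.89 and that of all genes 0.01. Only mt-Nd2 passed the stricter threshold, which 10.3% of genes passed. The groups did not overlap in 6 members, against 37.8% of genes (19.3% higher and 18.5% lower), and the exception was mt-Co1. Both groups lie in the 500s, and the 7 calls were made there too, with log2 fold changes from 0.33 (mt-Co1) to 1.26 (mt-Nd2).

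For KW6002 against vehicle, 0 of 7 members were called by edgeR, and 0.0175% of genes (3 of 17131) were. At an unadjusted p below 0.05 edgeR counted 1930 genes (11.3%), and DESeq2 called 99 genes, among them 0 members. The members' log2 differences ran from -0.28 (mt-Nd6) to -0.02 (mt-Co1), with adjusted p from 0.635 to 0.945, and their median was -0.08 beside -0.00 over all genes. Not every direction was fixed. Without vehicle replicate 5 mt-Co1 stood at 0.00332, and within the 500s mt-Nd4 was at 0.09 and mt-Nd5 at 0.03. The difference of mt-Nd6 was -0.75 (adjusted p 0.242, edgeR) within the 500s, -0.44 without vehicle replicate 2, -0.17 without vehicle replicate 4 and -0.06 without vehicle replicate 5, and its adjusted p ranged from 0.242 to 0.931 over the alternatives. The others ranged from -0.14 to -0.05 (mt-Nd1), -0.11 to -0.06 (mt-Nd2) and -0.16 to -0.10 (mt-Cytb). Of the 7 tested members only mt-Cytb did not overlap between the groups, which held for 1.39% of genes (0.998% lower and 0.391% higher). The number of all genes called was 64 without vehicle replicate 3, 10 without KW6002 replicate 1, 5 without vehicle replicate 5 or KW6002 replicate 6, and 1 without vehicle replicate 4 or KW6002 replicate 2 or 5.

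For cisplatin plus KW6002 against vehicle, 6 of 7 members were called, 5 lower and 1 (mt-Nd1) higher, where 59.7% of genes were called, 29.9% lower and 29.8% higher. The members' median was -0.38 and that of all genes -0.00. None of the 7 passed the stricter threshold in edgeR, which 13.4% of genes passed. With DESeq2 mt-Nd6 was not called either (adjusted p 0.170). The groups did not overlap in 5 members, against 37.5% of genes (18.5% lower and 18.9% higher), and the exceptions were mt-Nd1 and mt-Nd6. The number of members called was 5 without vehicle replicate 1 or cisplatin plus KW6002 replicate 6, 7 without vehicle replicate 5 and 4 within the 500s. With libraries scaled by size alone, the median of all genes moved to 0.16 and 67.7% of the calls were higher. In that setting 6 members were called, 4 lower and 2 higher, with mt-Nd6 gained and mt-Co1 lost, and mt-Nd1 stood at 0.39 and mt-Nd2 at -0.23. The 3 comparisons with vehicle share the same 5 vehicle kidneys.

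The design also gives the difference between the effect of KW6002 with cisplatin and its effect without. This interaction was called and positive in 7 of 7 members, where 42.7% of genes were called, 22.8% positive and 19.9% negative. Its log2 values were 0.94 (mt-Nd1, adjusted p 1.90e-06, edgeR), 1.35 (mt-Nd2, 1.93e-08), 0.96 (mt-Nd4, 2.36e-07), 0.74 (mt-Nd5, 1.87e-05), 1.24 (mt-Nd6, 0.00178), 1.01 (mt-Cytb, 1.04e-06) and 0.35 (mt-Co1, 0.0126). At the stricter threshold 3 members passed (mt-Nd2, mt-Nd6 and mt-Cytb), as did 8.58% of genes. Within the 500s 6 members were called, and mt-Co1 was at 0.35 (adjusted p 0.0966, with a range of 0.00113 to 0.0966 over the alternatives).

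**Figure D4:**
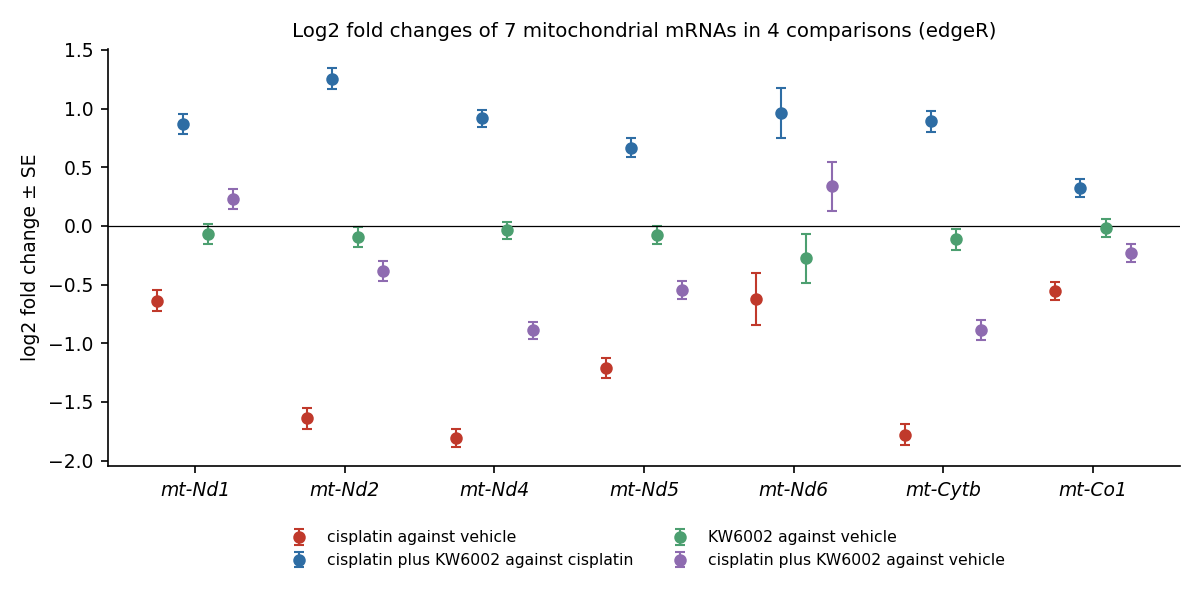
Log2 fold change with SE of the 7 tested members in 4 comparisons of groups. Cisplatin against vehicle ranges from -1.81 (mt-Nd4) to -0.55 (mt-Co1), cisplatin plus KW6002 against cisplatin from 0.33 (mt-Co1) to 1.26 (mt-Nd2), and KW6002 against vehicle from -0.28 (mt-Nd6) to -0.02 (mt-Co1) with the 22 kidneys.

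Although most members come from 1 long transcript, they did not change as a block. In vehicle kidneys mt-Cytb made up 29.6% ± 0.934 (SD, n = 5) of the pool of member counts, mt-Co1 20.1% ± 0.592, mt-Nd1 15.7% ± 0.655, mt-Nd5 12.8% ± 0.961, mt-Nd2 12.3% ± 0.559, mt-Nd4 9.27% ± 0.558 and mt-Nd6 0.181% ± 0.0744. In the KW6002 group each of these means differed from vehicle by less than 1 percentage point. In cisplatin kidneys mt-Cytb fell to 19.3% ± 0.686 (n = 5), while mt-Co1 stood at 30.8% ± 2.41 and mt-Nd1 at 22.5% ± 1.09. The share of mt-Nd2 was 8.82% ± 0.814 and that of mt-Nd4 5.92% ± 0.297 in these kidneys, and mt-Nd5 kept 12.4% ± 0.402. None of the shares of mt-Cytb, mt-Co1, mt-Nd1, mt-Nd2 and mt-Nd4 overlapped between vehicle and cisplatin kidneys. With both drugs mt-Co1 was at 22.9% ± 0.741 (n = 6) and mt-Nd2 at 12.5% ± 0.649, but mt-Nd1 was at 24.5% ± 1.02, mt-Cytb at 21.3% ± 0.603 and mt-Nd4 at 6.69% ± 0.446. The mean shares of mt-Co1 and mt-Nd2 thus lay nearer to those of vehicle kidneys, and those of mt-Nd1, mt-Cytb and mt-Nd4 nearer to those of cisplatin kidneys.

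**Figure D5:**
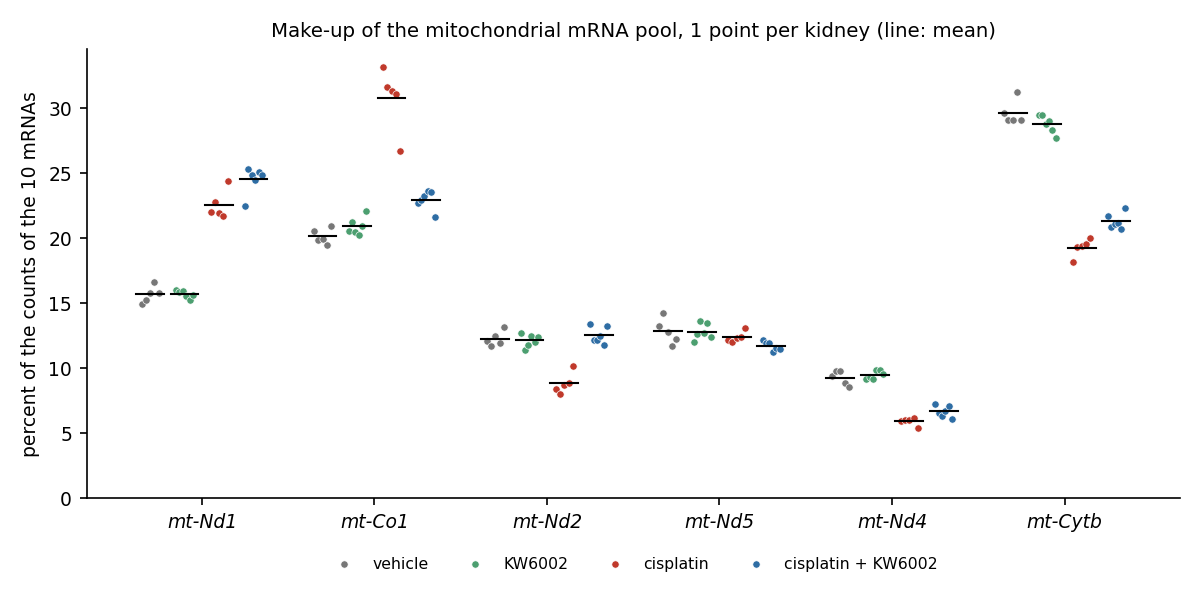
Percentage of the pool of member counts taken by 6 members in each of the 22 kidneys, by group, with group means. The mean share of mt-Cytb is 29.6, 28.8, 19.3 and 21.3% in vehicle, KW6002, cisplatin and both drugs, and that of mt-Nd1 is 15.7, 15.7, 22.5 and 24.5%.

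Ratios of counts within a library show the same, and do not depend on scaling. The following pairs were chosen after their values were seen and have no test. The ratio of mt-Nd1 to mt-Cytb was 0.503 to 0.543 in vehicle, 0.535 to 0.564 in KW6002, 1.11 to 1.22 in cisplatin and 1.04 to 1.21 in kidneys with both drugs. The 2 groups with cisplatin overlapped each other and lay far above the others. The ratio of mt-Nd1 to mt-Nd2 was 1.20 to 1.40 in vehicle, 2.40 to 2.85 in cisplatin and 1.68 to 2.13 with both drugs. That of mt-Co1 to mt-Cytb was 0.622 to 0.720 in vehicle, 1.34 to 1.83 in cisplatin and 0.970 to 1.14 with both drugs. In these last 2 ratios the kidneys with both drugs lay between the other groups and overlapped neither.

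Some features of sequence set the members apart that their choice did not use. As annotated, 7 members end in a whole stop codon, while mt-Nd4, mt-Cytb and mt-Co3 end in a single T after the last whole codon, so that the stop codon is completed only when the tail of A bases is added to the RNA. On the same strand, mt-Ti starts at chrM:3706, within the stop codon of mt-Nd1, and mt-Tw at chrM:4950, within that of mt-Nd2. The last bases of these stop codons thus also belong to a transfer RNA, and which end the freed mRNAs have was not tested. The last 30 bases are shown for 2 members with each kind of annotated end, with the last codon or part of a codon in capitals. They are from the + strand of mm10: mt-Nd1 (chrM:3678-3707), mt-Nd2 (chrM:4922-4951), mt-Nd4 (chrM:11515-11544) and mt-Cytb (chrM:15259-15288).
mt-Nd1: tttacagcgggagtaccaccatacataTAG
mt-Nd2: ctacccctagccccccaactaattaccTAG
mt-Nd4: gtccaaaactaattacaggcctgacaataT
mt-Cytb: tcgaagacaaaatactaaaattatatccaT
The decrease with cisplatin was large in mt-Nd4 (-1.81) and mt-Cytb (-1.78), which are annotated without a whole stop codon. It was also large in mt-Nd2 (-1.64), which is annotated with one, as is mt-Nd1 (-0.64). Whether the end of the RNA has a part in the change was not tested.

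Between genes, levels can be compared only per length. Per kilobase of annotated length, the order in vehicle kidneys was mt-Cytb (25762 ± 673 CPM per kilobase; SD, n = 5), mt-Nd1 (16302 ± 731), mt-Co1 (12981 ± 536.2), mt-Nd2 (11772 ± 693), mt-Nd5 (7003 ± 546), mt-Nd4 (6693 ± 376) and mt-Nd6 (349 ± 146). The neighbours mt-Nd5 and mt-Nd4 differed by less than their spread. When only windows without a nuclear copy counted as length, the order changed for the copied members: mt-Co1 (27435 ± 1133) and mt-Cytb (26915 ± 703) came to within their spread of each other. Then followed mt-Nd4 (18372 ± 1032) and mt-Nd1 (17182 ± 771), at about their spread from each other, mt-Nd2 (13457 ± 792), mt-Nd5 (7789 ± 608) and mt-Nd6 (385 ± 162).

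On the same scale of unshared length, the order in cisplatin kidneys was mt-Co1 (18676 ± 2178 CPM per kilobase; SD, n = 5), mt-Nd1 (11041 ± 1312), mt-Cytb (7843 ± 1029.7), mt-Nd4 (5248 ± 669), mt-Nd2 (4318 ± 591), mt-Nd5 (3360.1 ± 370.1) and mt-Nd6 (249.9 ± 47.7). Kidneys with both drugs had mt-Co1 (23417 ± 1534; n = 6), mt-Nd1 (20191 ± 2153), mt-Cytb (14535 ± 1382), mt-Nd2 (10314 ± 1004), mt-Nd4 (9909.5 ± 326), mt-Nd5 (5330.4 ± 382) and mt-Nd6 (487 ± 113). There mt-Nd2 and mt-Nd4 differed by less than their spread. Per kilobase of annotated length the orders differed. In cisplatin kidneys mt-Nd1 (10476 ± 1245) then lay above mt-Co1 (8836 ± 1031), and mt-Nd4 (1912 ± 244) below mt-Nd2 (3777 ± 517) and mt-Nd5 (3021 ± 333). With both drugs mt-Nd1 (19157 ± 2043) and mt-Cytb (13912 ± 1323) lay above mt-Co1 (11079 ± 726). Among the tested members, the one on the - strand stayed the lowest in each group.

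Across the 22 libraries, the Pearson correlation of log2 CPM between members other than mt-Nd6 ran from 0.605 to 0.991 over 15 pairs, with a median of 0.942. For deviations from the group means, it ran from 0.338 to 0.885 (median 0.635). The 6 pairs with mt-Nd6 gave 0.227 to 0.767 (median 0.330), and -0.117 to 0.637 (median 0.403) for deviations. These are descriptions without a test, since the libraries fall in groups and the pairs share library and scaling.

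The ribosomal and transfer RNAs of chromosome M had low counts in these libraries of polyadenylated RNA. The ribosomal RNA mt-Rnr1 had 30 to 113 counts per library and mt-Rnr2 23 to 133. For cisplatin against vehicle, mt-Rnr1 was higher by a log2 fold change of 0.96 ± 0.223 (SE; adjusted p 0.000563, edgeR) and mt-Rnr2 by 0.90 ± 0.282 (adjusted p 0.00706), opposite to the mRNAs. Both drugs against cisplatin gave -0.74 ± 0.207 (adjusted p 0.00438) in mt-Rnr1 and -0.26 ± 0.258 (adjusted p 0.405) in mt-Rnr2. Whether this reflects the amount of ribosomal RNA or its capture was not tested.

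Among the transfer RNAs, 6 had enough counts for the test. Those that lie between mt-Nd1 and mt-Nd2 fell with cisplatin: mt-Ti by a log2 fold change of -2.63 ± 0.206 (SE; adjusted p 1.10e-10, edgeR), mt-Tm by -3.18 ± 0.229 (adjusted p 2.51e-11) and mt-Tq, which is read from the - strand, by -1.57 ± 0.536 (adjusted p 0.0125). Both drugs against cisplatin gave 0.78 (adjusted p 0.00264), 1.55 (adjusted p 7.02e-06) and 1.30 (adjusted p 0.0389) for the same RNAs. By contrast mt-Tl1, which precedes mt-Nd1, was higher with cisplatin at 0.80 ± 0.276 (adjusted p 0.0129) and with both drugs against vehicle at 1.37 ± 0.267 (adjusted p 0.000138). Neither mt-Tw at 0.09 (adjusted p 0.809) nor mt-Tp at 0.60 (adjusted p 0.0655) was called with cisplatin, and both were called higher for both drugs against cisplatin, at 0.89 (adjusted p 0.0111) and 0.94 (adjusted p 0.00345). No direction called among these RNAs changed under another scaling. Their counts per library ran from 34 to 340 for mt-Ti, 9 to 117 for mt-Tm, 4 to 50 for mt-Tq and 22 to 201 for mt-Tl1, and whether reads stem from the free transfer RNA or from longer precursors was not tested. The 9 further transfer RNAs with a row (mt-Tf, mt-Tv, mt-Ta, mt-Tn, mt-Tc, mt-Tr, mt-Ts2, mt-Te and mt-Tt) had at most 19 counts in any library and were not tested. The sequences of 3 of the tested transfer RNAs are shown because they lie before and after mt-Nd1 and changed in opposite directions. They are from the + strand of mm10 with the anticodon in capitals. Directly before mt-Nd1 lies mt-Tl1 (chrM:2676-2750), and mt-Ti (chrM:3706-3774) follows at its end. Further on, mt-Tm (chrM:3845-3913) lies directly before mt-Nd2.
mt-Tl1: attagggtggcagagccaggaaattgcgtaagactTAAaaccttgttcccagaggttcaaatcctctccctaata
mt-Ti: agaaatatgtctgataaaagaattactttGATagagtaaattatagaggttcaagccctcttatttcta
mt-Tm: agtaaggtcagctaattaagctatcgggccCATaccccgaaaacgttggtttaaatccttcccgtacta

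The members' partners in the respiratory chain are encoded in the nucleus. Of 82 such subunits, all tested, 62 were called lower and 5 higher with cisplatin, where 35.9% of all genes were called lower and 34.6% higher. Their median log2 fold change was -0.42, beside -0.01 over all genes and -1.21 over the 7 members. Scaled by library size alone, the counts were 40 lower and 14 higher with a median of -0.20, where the median of all genes was 0.20. Both drugs against cisplatin gave 46 higher and 7 lower, with a median of 0.21, where 28.6% of all genes were called higher and 27.2% lower. KW6002 against vehicle gave 0 calls among them by edgeR, where 1930 genes had an unadjusted p below 0.05 and DESeq2 called 99. By complex, cisplatin lowered 26 of 36 subunits of complex I (2 higher, median -0.36), 4 of 4 of complex II (median -0.81), 8 of 9 of complex III (median -0.42), 10 of 17 of complex IV (3 higher, median -0.32) and 14 of 16 of complex V (median -0.51). Complex II, which has no mitochondrially encoded subunit, thus had the lowest median.

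Single subunits are given by the rule stated with the methods, as those with the largest called changes with cisplatin in each list. In complex I these were Ndufs1 at -1.46 and Ndufa1 at -0.98, both lower, and Ndufb6 at 0.54 and Ndufa7 at 0.34, both higher (log2 fold changes, adjusted p at most 0.00117, edgeR). Complex II had Sdha at -1.33 and Sdhb at -0.96, complex III Uqcrc2 at -1.06 and Uqcrfs1 at -0.86, and complex V Atp5g1 at -1.27 and Atp5b at -1.03. The widest changes fell in complex IV, in isoforms with low counts in vehicle kidneys. Cox6b2 rose from 9.63 ± 1.53 CPM (SD, n = 5) to 176 ± 7.58 CPM (n = 5), a log2 fold change of 4.19. Cox4i2 rose by 1.16 at a low level, from 0.319 ± 0.0555 CPM in vehicle to 0.714 ± 0.240 CPM in cisplatin kidneys. Its highest vehicle kidney had 0.387 CPM and its highest KW6002 kidney 0.597 CPM, while the lowest cisplatin kidney had 0.509 CPM. Cox7a1 changed by -2.22. Cox6a2 fell from 1.79 ± 0.360 CPM to between 0 and 0.0283 CPM in cisplatin kidneys, a level near 0 at which the size of the decrease cannot be read. For both drugs against cisplatin the log2 values were 0.67 in Ndufs1, 0.64 in Sdha, 0.48 in Uqcrc2, 0.53 in Atp5b and -0.80 in Cox6b2.

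Further lists hold nuclear genes that maintain and express mitochondrial DNA, to be read beside the 35.9% of all genes called lower and 34.6% called higher with cisplatin. With cisplatin 8 of 9 genes for mitochondrial transcription were called lower and 0 higher (median log2 fold change -0.55), with 14 lower and 2 higher of 20 for processing and stability of the RNA (median -0.51). Of 12 translation factors 12 were lower (median -0.81), and of 10 genes for replication and the nucleoid 5 were lower and 0 higher (median -0.26). Among 8 regulators of biogenesis 5 were lower and 3 higher (median -0.65). For both drugs against cisplatin, where 28.6% of all genes were called higher and 27.2% lower, the counts were 5 higher and 1 lower of 9 for transcription, 13 and 0 of 20 for processing, 11 and 0 of 12 for translation, 5 and 2 of 10 for replication and 3 and 1 of 8 for regulators. Scaled by library size alone, each of these 5 medians kept its sign for cisplatin against vehicle and for both drugs against cisplatin, and that of processing turned from -0.13 to 0.03 for both drugs against vehicle.

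Polrmt, the mitochondrial RNA polymerase, stood at 50.8 ± 1.75 CPM (SD, n = 5) in vehicle, 52.0 ± 1.68 (n = 6) in KW6002, 29.5 ± 1.34 (n = 5) in cisplatin and 49.8 ± 2.83 (n = 6) in kidneys with both drugs. The kidneys with both drugs overlapped vehicle and lay above cisplatin. Its log2 fold change was -0.78 ± 0.0456 (SE; adjusted p 6.46e-13, edgeR) with cisplatin and 0.76 ± 0.0439 (adjusted p 7.37e-12) for both drugs against cisplatin. Tfam, which packs mitochondrial DNA and starts transcription, changed by -0.43 ± 0.0550 (adjusted p 3.20e-07) and 0.33 ± 0.0528 (adjusted p 1.59e-05), from 55.4 ± 3.39 CPM in vehicle. Lrpprc, which stabilises mitochondrial mRNAs, changed by -0.77 ± 0.0463 (adjusted p 1.09e-12) and 0.41 ± 0.0444 (adjusted p 6.16e-08). The coactivator gene Ppargc1a changed by -0.93 (adjusted p 4.06e-09) and 0.51 (adjusted p 3.13e-05), and the receptor gene Esrra by -0.97 (adjusted p 9.67e-11) and 0.63 (adjusted p 1.56e-07). In the other direction, Ppara rose by 0.89 (adjusted p 1.24e-07) with cisplatin and changed by -0.59 (adjusted p 3.54e-05) for both drugs against cisplatin, and Pprc1 rose by 0.58 (adjusted p 0.000434) with cisplatin.

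Other genes that the same rule names changed with cisplatin, at an adjusted p of at most 2.60e-05 (edgeR), as follows. In replication they were Mgme1 (-0.93) and Twnk (-0.58), and in transcription Mterf2 (-0.92) with Polrmt. In processing Fastkd2 (-1.24) and Mto1 (-0.99) were lower, and Pde12 (0.39) and Hsd17b10 (0.31) higher. In translation they were Gfm1 (-1.29) and Gfm2 (-1.19), the elongation factor and the ribosome recycling factor. For both drugs against cisplatin Gfm1 rose by 0.87 (adjusted p 4.94e-11) and Fastkd2 by 0.71 (adjusted p 1.18e-11), while Mgme1 at 0.13 (adjusted p 0.225) was not called.

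Among 10420 nuclear genes, those whose log2 CPM over the 22 libraries was most like the mean of the members were Ccdc107 (Pearson r 0.986), Immt (0.985), Slc22a18 (0.983), Abat (0.983) and Pccb (0.983). With cisplatin their log2 fold changes were -1.15, -0.89, -2.80, -1.73 and -1.27, and for both drugs against cisplatin 0.90, 0.60, 2.18, 1.16 and 0.79. For deviations from the group means the most like were Serpina1d (0.885), Ddt (0.868), Sdhb (0.852), C8a (0.851) and Aldh2 (0.851). Not all of these 5 changed as the members did between groups: with cisplatin Ddt (-0.82), Sdhb (-0.96) and C8a (-3.09) were called lower, but Aldh2 was called higher at 0.67 (adjusted p 2.01e-07, edgeR), and Serpina1d stood at 0.24 (adjusted p 0.427). The correlations are the highest of many and carry no test, and the libraries share group and scaling.

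The RNA of markers of kidney cells also differed between groups. The counts of markers called stand beside 35.9% of all genes called lower and 34.6% called higher with cisplatin, and 28.6% called higher and 27.2% lower for both drugs against cisplatin. The 10 markers of the proximal tubule summed to 19687 ± 596 CPM (SD, n = 5) in vehicle, 19579 ± 606 (n = 6) in KW6002, 3314 ± 595 (n = 5) in cisplatin and 9182 ± 1622 (n = 6) in kidneys with both drugs. With cisplatin 10 of 10 were called lower, for both drugs against cisplatin 8 of 10 higher, and the most abundant, Slc34a1, averaged 7581, 7121, 231 and 3062 CPM. As with the members' share, cisplatin kidneys were lowest and kidneys with both drugs lay between, and in bulk kidney fewer cells of a type and less RNA per cell cannot be told apart. The 5 markers of the thick ascending limb (most abundant Umod) summed to 8735 ± 1834, 10047.5 ± 674, 2202 ± 129.8 and 3725 ± 845 CPM, and 5 of 5 were called lower with cisplatin. The 3 of the distal convoluted tubule (Slc12a3) summed to 1638 ± 27.5, 1558 ± 195, 75.5 ± 18.2 and 254 ± 79.9 CPM, with 3 of 3 lower. None of the markers in these lists was at 0 in all libraries, and their part in the members' changes was not tested.

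Lists for other cells are given in the same order of vehicle, KW6002, cisplatin and both drugs, with calls for cisplatin against vehicle, where 34.6% of all genes were called higher and 35.9% lower. The 6 markers of tubular injury (Lcn2) summed to 85.2 ± 4.10, 90.1 ± 8.09, 2339 ± 465 and 671 ± 146 CPM, with 6 of 6 higher with cisplatin. The 5 fibroblast markers (Dcn) summed to 293 ± 84.6, 301 ± 103, 872 ± 95.9 and 440.2 ± 121 CPM, with 5 of 5 higher. Intercalated cells (Slc26a4) summed to 322, 279, 189.8 and 268 CPM, with 0 higher and 3 lower of 5. Principal cells of the collecting duct (Aqp2) summed to 459, 579, 715 and 768 CPM, with 2 higher and 1 lower of 6. Podocytes (Podxl; 530.5, 501, 505 and 484 CPM) had 2 higher and 3 lower of 5 with cisplatin, although Podxl itself turned from -0.15 to 0.07 under scaling by library size alone, and endothelium (Plvap; 503, 522.97, 545 and 484 CPM) 2 higher and 1 lower of 6. Macrophages (Lyz2; 296, 259, 286 and 186 CPM) had 1 higher and 2 lower of 7. The least abundant lists were neutrophils (S100a9; 9.41, 7.52, 8.06 and 5.26 CPM; 1 higher and 0 lower of 4 tested), T cells (Cd4; 4.21, 4.53, 1.36 and 1.41 CPM; 0 higher and 4 lower of 5 tested), B cells (Cd79b; 2.32, 2.23, 1.13 and 1.27 CPM; 0 higher and 3 lower of 4) and muscle (Mylpf; 1.61, 1.29, 2.27 and 1.73 CPM; 1 higher of 1 tested). The part of these lists was not tested.

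Markers of red blood cells and fat also differed between groups. The 5 red blood cell markers (Hbb-bs) summed to 195 ± 149 CPM (SD, n = 5) in vehicle, 168 ± 103 (n = 6) in KW6002, 0.149 ± 0.0738 (n = 5) in cisplatin and 0.439 ± 0.136 (n = 6) in kidneys with both drugs, and 5 of 5 were called lower with cisplatin. The 6 fat markers (Fabp4) summed to 481 ± 367, 246 ± 127, 469 ± 158 and 104 ± 61.3 CPM, and 6 of 6 were called lower for both drugs against cisplatin. Their part in the members' changes was not tested.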

How the data were processed

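The measurements were gene counts of 22 kidney libraries. The authors deposited raw read counts per gene, made from single reads of 50 bases aligned to mm10 with STAR and counted with HTSeq 0.6.1p1; 66 unnamed columns held no values and were not used. Groups came from the labels. Library totals and medians are given above. Genes were filtered with filterByExpr (at least 10 counts in 5 libraries, 15 in all), which kept 17131 genes and 99.9% of counts. edgeR 4.0.16 (R 4.3.3) fitted 4 group means with TMM scaling and quasi-likelihood F tests, adjusted by Benjamini-Hochberg over all genes tested; the common biological coefficient of variation was 0.129. The alternatives were relative log expression factors, library size alone, nuclear genes only for scaling, no filter, at least 10 counts in each library, a replicate block, the number series as covariate, the 500s alone, the compared groups alone, DESeq2 1.42.0, the stricter threshold, the share over nuclear counts or of the whole of chromosome M, and leaving out each library. The members and lists were chosen with earlier results of these data known. Genes named were the members, other genes of chromosome M, Tfam, Polrmt, Lrpprc and Ppargc1a, the 2 largest called changes with cisplatin in each direction of each list, the 5 most correlated nuclear genes by each measure (log2 CPM, prior count 2), the nuclear copies, the most abundant marker of each list, and Havcr1 and Lcn2. Sequences and windows were read from GENCODE M21 transcripts with Python 3.11.15. The code was tested on simulated data.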

Additional observations from a re-analysis of the deposited data

Results flagged for a closer look

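Values were examined in 124 groups of kidneys, and 1 kidney stood far from the others in 10 of them, where chance flags about 1 in 20 groups. Cisplatin replicate 1 was such a kidney in mt-Nd5 (4434 CPM) and mt-Cytb (6612 CPM), each the lowest of 5, and it had the lowest share of mitochondrial counts. Within the pool of member counts, the lowest kidney with both drugs stood at 22.5% for mt-Nd1 and the highest vehicle kidney at 31.2% for mt-Cytb.

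Among the marker sums, single low kidneys were seen for the proximal tubule in KW6002 (18357 CPM), the distal convoluted tubule in vehicle (1589 CPM), the collecting duct with both drugs (507 CPM), intercalated cells in vehicle (288 CPM) and tubular injury in cisplatin (1527 CPM), and a single high kidney for macrophages in KW6002 (509.9 CPM).

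In 7 members the effect of KW6002 differed between kidneys with and without cisplatin, by the test of that difference itself in edgeR, which called 42.7% of all genes. The differences of the log2 effects were 0.94 in mt-Nd1, 1.35 in mt-Nd2, 0.35 in mt-Co1, 0.96 in mt-Nd4, 0.74 in mt-Nd5, 1.24 in mt-Nd6 and 1.01 in mt-Cytb. Within the 500s that of mt-Co1 was not called (adjusted p 0.0966). Their causes were not tested.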

How the results depend on the processing

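Among the log2 fold changes of members under an alternative, 1098 kept their direction and their side of the threshold, 9 lost a call, 2 gained it and 4 changed direction. Cisplatin against vehicle kept both in the 6 tested members other than mt-Nd6, and cisplatin plus KW6002 against cisplatin in 7 of 7, under each alternative run other than the stricter threshold. Directions changed in 4 cases: within the 500s, mt-Nd4 (0.0928) and mt-Nd5 (0.0261) for KW6002 against vehicle and mt-Nd6 (-0.17) for both drugs against vehicle, and without vehicle replicate 5, mt-Co1 (0.00332) for KW6002 against vehicle, whose values ran from -0.0373 to 0.00332 when a library was left out. Within the 500s fewer kidneys are used; beyond that the cause was not tested.

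At the stricter threshold (adjusted p under 0.01, log2 fold change above 1 or below -1), the members called were 4 for cisplatin, 1 for both drugs against cisplatin, 0 for both drugs against vehicle (6 in edgeR at an adjusted p below 0.05, and 7 in DESeq2, of which 1, mt-Co3, is outside the edgeR test with 0 to 14 counts) and 3 for the interaction, and all genes called 4137, 1766, 2300 and 1469, with 0 for KW6002 against vehicle (1930 at an unadjusted p below 0.05, 99 by DESeq2); the stricter threshold itself lowers them. For KW6002 against vehicle all genes called were 3, and 1 with a replicate block, 40 with the number series as covariate, 8 within the 500s, 0 in edgeR with these groups alone, 99 with DESeq2 and 1 to 64 when a library was left out; the cause was not tested. Whether replicate numbers pair kidneys is not stated in the labels. Over 31 pairs of the same number the median correlation of deviations was 0.00846, and the replicate block is given only as an alternative.

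Without a filter 8 members were called for both drugs against cisplatin and 7 for both drugs against vehicle, the added ones being mt-Co2 and mt-Co3 in this order, with at most 14 counts in a library. Leaving out a library gave 6 to 7, 7 to 7, 0 to 0, 5 to 7 and 7 to 7 members called in the 5 comparisons, in the order of the report. As a percentage of counts on nuclear genes the share was 10.3 in vehicle, 9.80 in KW6002, 5.08 in cisplatin and 8.44 with both drugs, as the smaller denominator requires. Left-out libraries moved the share of all counts to 9.28 to 9.37, 8.90 to 8.96, 4.75 to 5.02 and 7.66 to 7.92% in vehicle, KW6002, cisplatin and both drugs.

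Few counts limit what can be said of mt-Co2, mt-Co3 and mt-Atp6, with at most 14 per library, for which the cause was not tested. The transfer and ribosomal RNAs had at most 340 counts per library, which limits the precision of their changes. The vehicle group has 2 kidneys in the 500s, so values there rest on few animals. Counts give no amount of mitochondrial DNA, RNA per cell or protein, none of which was analysed here. The copies were sought in annotated transcripts alone.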
